A study of Mus musculus with 18 samples.

Results

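Ccl3, Ccl4, Ccl5 and Xcl1, the chemokine genes that CD8 T cells are best known for making, were followed across naive and memory CD8 T cells, directly after sorting and after culture with IL-4, IL-7, both or neither. They are 4 of the 18193 genes that the array annotation names, were chosen by gene symbol and had 1 probe set each: 1419561_at for Ccl3, 1421578_at for Ccl4, 1418126_at for Ccl5 and 1419412_at for Xcl1. All cells came from the spleens of C57Bl/6 mice carrying the F5 T cell receptor transgene, so naive and memory cells share 1 receptor specificity, and were isolated by flow cytometry. The memory cells, called TIM memory cells in the labels, came from F5 mice given the NP68 peptide in 2 immunisations and were studied on day 45. The memory groups were cells held 20 h with IL-4 and IL-7, with IL-7, with IL-4 or in medium without cytokine (2 arrays each), and cells measured ex vivo, directly after sorting (4 arrays). The naive groups were cells held 20 h with IL-4 and IL-7 or with IL-7, and cells measured ex vivo (2 arrays each). IL-4 was used at 20 ng/mL and IL-7 at 10 ng/mL. The cell type label of the naive arrays holds both the words naive and memory, and they are taken as naive from their titles. The titles number the ex vivo arrays as biological replicates and the cultured arrays only as replicates. No label says how many animals gave a population or that an array number marks a shared population. The p-values thus rest on differences among these 18 arrays, which may be in part technical.

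Chemokines are small secreted proteins that draw leukocytes towards their source through G protein-coupled receptors. Ccl3, Ccl4 and Ccl5 attract T cells and myeloid cells, and Ccl3 and Ccl5 act on Ccr1 among other receptors. Xcl1 acts on Xcr1, the receptor of the dendritic cells that present antigen to CD8 T cells. In CD8 T cells Ccl3, Ccl4 and Xcl1 are known as genes switched on by T cell receptor signals, whereas Ccl5 mRNA is known to be held by resting memory cells ahead of restimulation.

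Values are log2 RMA values, where a difference of 1 is a factor of 2. A gene entered the tests when at least 2 arrays put it above 4.06, a level set at percentile 40 of the values and not a measured background, which 13769 genes and 4 of 4 chemokine genes did. Ccl4 and Ccl5 lay above this value on 18 of 18 arrays, Ccl3 on 7 and Xcl1 on 3, so most Ccl3 and Xcl1 values are in the range where an array compresses differences. The 7 CD8 T cell markers on the array (Cd8a, Cd3e and others) lay above it on every array, with a mean of 11.14 to 11.73, and Cd4 stayed between 4.55 and 5.30. A total of 3 arrays stood apart from the other arrays of their group. The second array labelled memory in medium had its highest correlation with an ex vivo memory array (r = 0.995), while the 2 medium arrays correlated at r = 0.956. Its difference between the 3' and 5' Gapdh control probe sets, 2.35 log2 units against 3.16 on the other medium array, lay within the 2.07 to 2.62 of ex vivo memory arrays. The same difference for the actin control was 1.87 against 2.09 on the other medium array. Both lay outside the 1.96 to 2.07 of ex vivo memory arrays. On the second arrays of both cultured naive groups 40 genes were over 2 log2 units higher than on the first array. In turn 0 genes were as much lower on both. The second naive array with IL-4 and IL-7 was closer to the second IL-7 array (r = 0.989) than to its own group (r = 0.975). The first was likewise closer to the first naive IL-7 array (r = 0.978). Memory arrays with IL-4, IL-7 or both also had their highest correlation outside their own group. Such a match alone thus sets no array apart.

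Ccl5, a chemokine for T cells, monocytes and eosinophils, separated memory from naive cells in every condition measured. In memory cells it read 10.13 and 10.58 with IL-4 and IL-7, 12.03 and 11.95 with IL-7, 10.35 and 10.21 with IL-4, 12.25 and 12.13 in medium, and 12.62, 12.06, 11.42 and 11.76 ex vivo. In naive cells it read 4.82 and 5.30 with IL-4 and IL-7, 4.90 and 5.82 with IL-7, and 5.97 and 5.71 ex vivo. The lowest memory array thus lay over 4 log2 units above the highest naive array, and no groups of memory and naive cells overlapped. In bulk RNA, fewer cells that express a gene and less of its RNA per cell cannot be told apart.

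Ex vivo, Ccl5 was 6.12 log2 units higher in memory than in naive cells (SE 0.30, limma adjusted p = 8.71e-08), a factor of 69.8. With IL-7 the difference was 6.63 (SE 0.34, limma adjusted p = 2.09e-07), and with IL-4 and IL-7 it was 5.29 (SE 0.34, limma adjusted p = 2.22e-06). These differences passed the test of an adjusted p under 0.05 over all genes under every alternative run, and leaving out single arrays kept them between 5.05 and 7.09. In the same fits 1.93% of all genes tested passed ex vivo, 2.7% with IL-7 and 3.81% with IL-4 and IL-7. Ccl5 was the only 1 of the 4 chemokine genes past the test in these 3 comparisons when all 18 arrays were used.

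Memory cells cultured with IL-4 had less Ccl5 than memory cells cultured without it. With IL-4 and IL-7 the mean was 10.36 ± 0.31, against 11.99 ± 0.056 with IL-7 (SD, n = 2 each). With IL-4 it was 10.28 ± 0.10, against 12.19 ± 0.083 in medium (SD, n = 2 each). The 4 arrays with IL-4 lay below the 4 cultured without it and below all 4 ex vivo arrays, and the groups did not overlap.

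Ccl5 fell by 1.63 log2 units with IL-4 and IL-7 against IL-7 (SE 0.34, limma adjusted p = 0.0261), a factor of 3.11, where 1.81% of all genes passed. The call ended when any 1 of the 4 arrays was left out, with changes of -1.41 to -1.86 and limma adjusted p-values of 0.0787 to 0.201, while the direction stayed. It fell by 1.91 with IL-4 against medium (SE 0.34, limma adjusted p = 0.00998), a factor of 3.75, where 1.94% passed. This call held without the second array labelled medium, which leaves 1 array there with a spread taken from the other groups (-1.97, limma adjusted p = 0.0292, 1.54% of all genes past the test), and ended without the first IL-4 array (-1.98, limma adjusted p = 0.0843) or the second (-1.84, limma adjusted p = 0.0998) and in a fit of only the 4 arrays compared (limma adjusted p = 0.111). The IL-4 effects with and without IL-7 differed by 0.27 (95% interval -0.77 to 1.32, limma adjusted p = 0.927), and 0% of all genes passed that test, with 650 at an unadjusted p under 0.05.

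Against ex vivo memory cells Ccl5 was lower in both conditions that held IL-4. It fell by 1.68 with IL-4 (SE 0.30, limma adjusted p = 0.00205), where 20.7% of all genes passed. With IL-4 and IL-7 it fell by 1.61 (SE 0.30, limma adjusted p = 0.00228), where 22.8% passed. Without IL-4 the values stayed near those of ex vivo cells, at 0.03 above them with IL-7 (95% interval -0.61 to 0.67) and 0.22 above them in medium (95% interval -0.42 to 0.86), and neither difference passed. The Gapdh control difference was 2.07 to 2.69 on ex vivo arrays. It was 2.35 on the second medium array and 2.67 to 3.36 on the other cultured arrays, so the ranges overlapped. The actin control difference was 1.95 to 2.07 on ex vivo arrays and 1.63 to 2.25 on cultured arrays, to both sides. The part of these control differences in comparisons between culture and ex vivo was not tested.

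In naive cells Ccl5 had a mean of 5.06 ± 0.34 with IL-4 and IL-7, against 5.36 ± 0.65 with IL-7 (SD, n = 2 each), and the 2 groups overlapped. The change with IL-4 was -0.29 (95% interval -1.03 to 0.44, limma adjusted p = 0.890), in a comparison where 1.26% of all genes passed, and -0.07 without the second array of both groups (limma adjusted p = 0.977). The IL-4 effect on Ccl5 in memory minus that in naive cells was -1.34 (SE 0.49, unadjusted p = 0.0155, limma adjusted p = 0.403), so a difference between the cell types did not pass, and 0.0726% of all genes did. Without the second array of both cultured naive groups it was -1.56 (unadjusted p = 0.0115, limma adjusted p = 0.242). Against naive cells ex vivo, the Ccl5 difference was -0.48 log2 units with IL-7 (limma adjusted p = 0.420) and -0.78 with IL-4 and IL-7 (limma adjusted p = 0.155), neither past the test. Without those 2 arrays the differences were -0.94 (limma adjusted p = 0.183) and -1.02 (limma adjusted p = 0.0933).

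**Figure D1:**
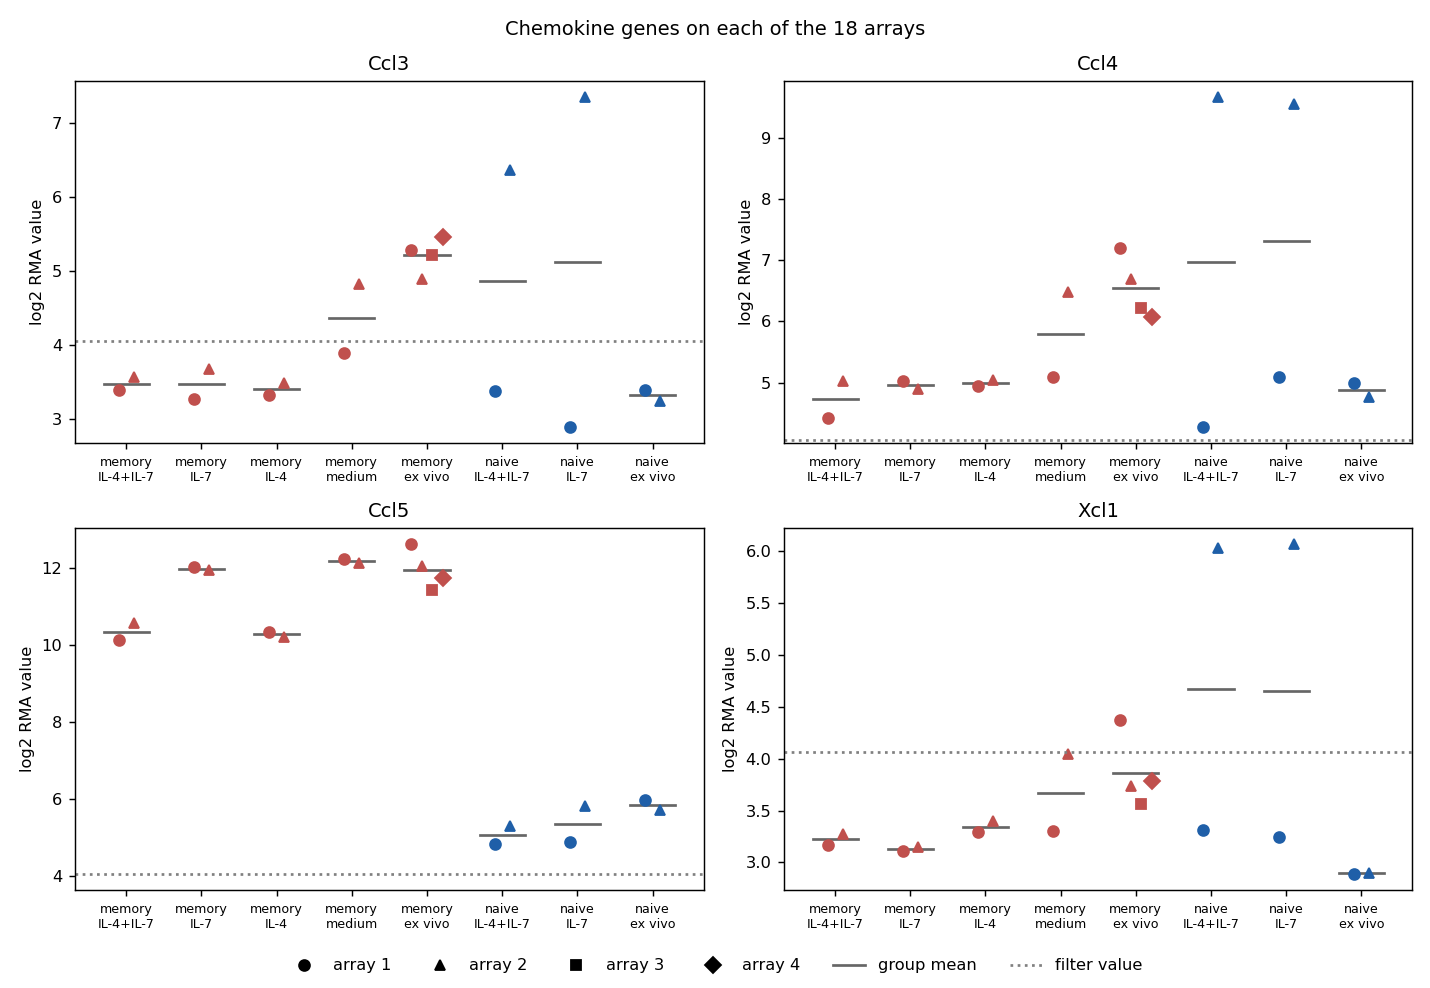
Log2 RMA value (y axis) of the 4 chemokine genes on each of 18 arrays, by group (x axis), with memory cells in red and naive cells in blue; marker shapes give the array number, grey lines the group means and the dotted line the filter value of 4.06. Ccl5 lies between 10.13 and 12.62 in memory cells and between 4.82 and 5.97 in naive cells, while the highest Ccl3, Ccl4 and Xcl1 values are on the second arrays of both cultured naive groups.

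Ccl3 and Ccl4, close relatives that attract T cells and myeloid cells, are neighbours on chromosome 11 in the RefSeq gene order. Ccl5 lies on the same chromosome, between Heatr9 and Ccl9, and Xcl1 on chromosome 1. Ccl3 read 5.28, 4.90, 5.22 and 5.47 in memory cells ex vivo, against 3.40 and 3.25 in naive cells ex vivo. Ccl4 read 7.20, 6.69, 6.22 and 6.07 in memory cells ex vivo, against 4.99 and 4.77 in naive cells ex vivo. For both genes every memory array lay above both naive arrays.

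Memory minus naive cells ex vivo, the difference was 1.89 for Ccl3 and 1.66 for Ccl4, and whether it passed the test depended on arrays outside the comparison. With 1 spread estimated from all 18 arrays, the SE was 0.90 for Ccl3 (limma adjusted p = 0.298) and 1.19 for Ccl4 (limma adjusted p = 0.480), so neither passed. In a fit of only the 6 ex vivo arrays the SE was 0.18 for Ccl3 (limma adjusted p = 0.000704) and 0.29 for Ccl4 (limma adjusted p = 0.0179), and 2.8% of all genes passed. In a fit of all arrays except the second array of both cultured naive groups, an alternative added after these values were seen, Ccl3 passed (limma adjusted p = 0.000821) as did Ccl4 (limma adjusted p = 0.0359), and 2.06% of all genes passed.

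Both genes were low in memory cells after culture with either cytokine. Ccl3 read 3.39 and 3.57 with IL-4 and IL-7, 3.28 and 3.67 with IL-7, and 3.32 and 3.49 with IL-4, all below the filter value and below every ex vivo memory array. Ccl4 read 4.42 and 5.03 with IL-4 and IL-7, 5.02 and 4.89 with IL-7, and 4.94 and 5.05 with IL-4, also below every ex vivo memory array. These 6 arrays overlapped with naive cells ex vivo for both genes.

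Against ex vivo memory cells, the Ccl3 differences were -1.73 with IL-4 and IL-7, -1.74 with IL-7 and -1.81 with IL-4. With all 18 arrays none passed (limma adjusted p-values of 0.182 to 0.193). In fits of only the arrays compared all 3 passed (limma adjusted p-values of 5.69e-05 to 0.000205), and without the second array of both cultured naive groups they passed too (limma adjusted p-values of 0.000744 to 0.00869). For Ccl4 the differences were -1.82, -1.59 and -1.55 in the same order of cultures, with limma adjusted p-values of 0.314 to 0.415 over all 18 arrays, 0.00174 to 0.00252 in fits of only the arrays compared, and 0.00498 to 0.0149 without those 2 arrays. With IL-7 against ex vivo, 19.9% of all genes passed over all 18 arrays, 29.4% in the fit of only the arrays compared and 20.6% without the 2 naive arrays. For IL-4 28% passed in the fit of only the arrays compared and 21.4% without the 2 naive arrays, and for IL-4 and IL-7 the shares were 28.5% and 23.9%.

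In medium the 2 arrays differed. Ccl3 read 3.89 and 4.84 and Ccl4 read 5.10 and 6.48, with the second Ccl4 value inside the range of ex vivo memory cells and the second Ccl3 value just below its lowest array. The difference of medium from ex vivo did not pass for any of the 4 genes in limma, none had an unadjusted p under 0.05, and 0% of all genes passed (1364 at an unadjusted p under 0.05). Without the second medium array 16.4% of all genes passed and again none of the 4. Without it and the second array of both cultured naive groups, also an alternative added later, Ccl3 passed at -1.32 (limma adjusted p = 0.00131) and Ccl4 at -1.45 (limma adjusted p = 0.00992), where 19.1% of all genes passed. Medium is then a single array, assumed to vary like the other groups, in a fit whose arrays were removed after the values were seen.

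Of the 4 genes only Ccl3 and Xcl1 were matched in the RefSeq sequences used. The 250 bases upstream of the start of each are shown from RefSeq, build GRCm38.p6, 5′ to 3′ on the minus strand. They lie at chr11:83649379-83649628 for Ccl3 and chr1:164935523-164935772 for Xcl1. Capitals mark matches of the NFAT core (GGAAA, here on the other strand) and of a T-box core (GGTGTGA).
Ccl3: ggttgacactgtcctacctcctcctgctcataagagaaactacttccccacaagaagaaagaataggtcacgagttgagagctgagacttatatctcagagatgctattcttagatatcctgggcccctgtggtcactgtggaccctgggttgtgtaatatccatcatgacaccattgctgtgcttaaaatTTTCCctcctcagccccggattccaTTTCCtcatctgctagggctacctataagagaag
Xcl1: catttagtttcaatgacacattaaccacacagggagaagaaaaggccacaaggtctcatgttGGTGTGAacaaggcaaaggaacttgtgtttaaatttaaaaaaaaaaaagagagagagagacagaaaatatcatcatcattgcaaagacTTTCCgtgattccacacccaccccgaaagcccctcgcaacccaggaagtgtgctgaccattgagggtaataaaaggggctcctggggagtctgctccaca
Both strands were searched for these and for an NF-kB motif written GGGNNNNNCC, an AP-1 motif written TGANTCA, a STAT motif with the shorter spacer written TTCNNNGAA, one with the longer spacer written TTCNNNNGAA and the TATA box written TATAAA, and no matches overlapped. The Ccl3 window held GGAAA at 59 and 34 bases upstream of the start, and the Xcl1 window held it at 100 bases upstream and GGTGTGA at 188. Among 32851 RefSeq windows of the same length 55.6% held GGAAA and 3.33% held GGTGTGA. The other motifs were in neither window, against 45.8% of windows for NF-kB, 6.75% for AP-1, 7.02% and 5.85% for the STAT spacings and 12.4% for the TATA box.

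Xcl1, the ligand of Xcr1, had the lowest detection of the 4 genes. It read 4.37, 3.73, 3.57 and 3.79 in memory cells ex vivo, against 2.89 and 2.90 in naive cells ex vivo. All 4 memory arrays lay above both naive arrays, but only 1 lay above the filter value. The difference of 0.97 did not pass over all 18 arrays (SE 0.67, limma adjusted p = 0.470), in the fit of the ex vivo arrays alone (SE 0.22, limma adjusted p = 0.0533) or without the second array of both cultured naive groups (limma adjusted p = 0.0539).

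In cultured memory cells Xcl1 read 3.17 and 3.28 with IL-4 and IL-7, 3.11 and 3.15 with IL-7, 3.29 and 3.40 with IL-4, and 3.30 and 4.04 in medium. All but the second medium array lay below every ex vivo memory array. Over all 18 arrays no difference from ex vivo memory cells passed, with limma adjusted p-values from 0.470 to 0.946. Xcl1 entered the tests through the second arrays of both cultured naive groups, as only 1 other array lay above the filter value. The 2 fits given next leave those naive arrays out. The same filter on their arrays alone would not have let Xcl1 be tested. With IL-7 the difference was -0.73 and passed in the fit of only the arrays compared (limma adjusted p = 0.0279) and without the second array of both cultured naive groups (limma adjusted p = 0.0415). In those 2 fits the differences with IL-4 (-0.52, limma adjusted p-values of 0.103 and 0.130) and with IL-4 and IL-7 (-0.64, limma adjusted p-values of 0.0517 and 0.0602) did not pass.

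**Figure D2:**
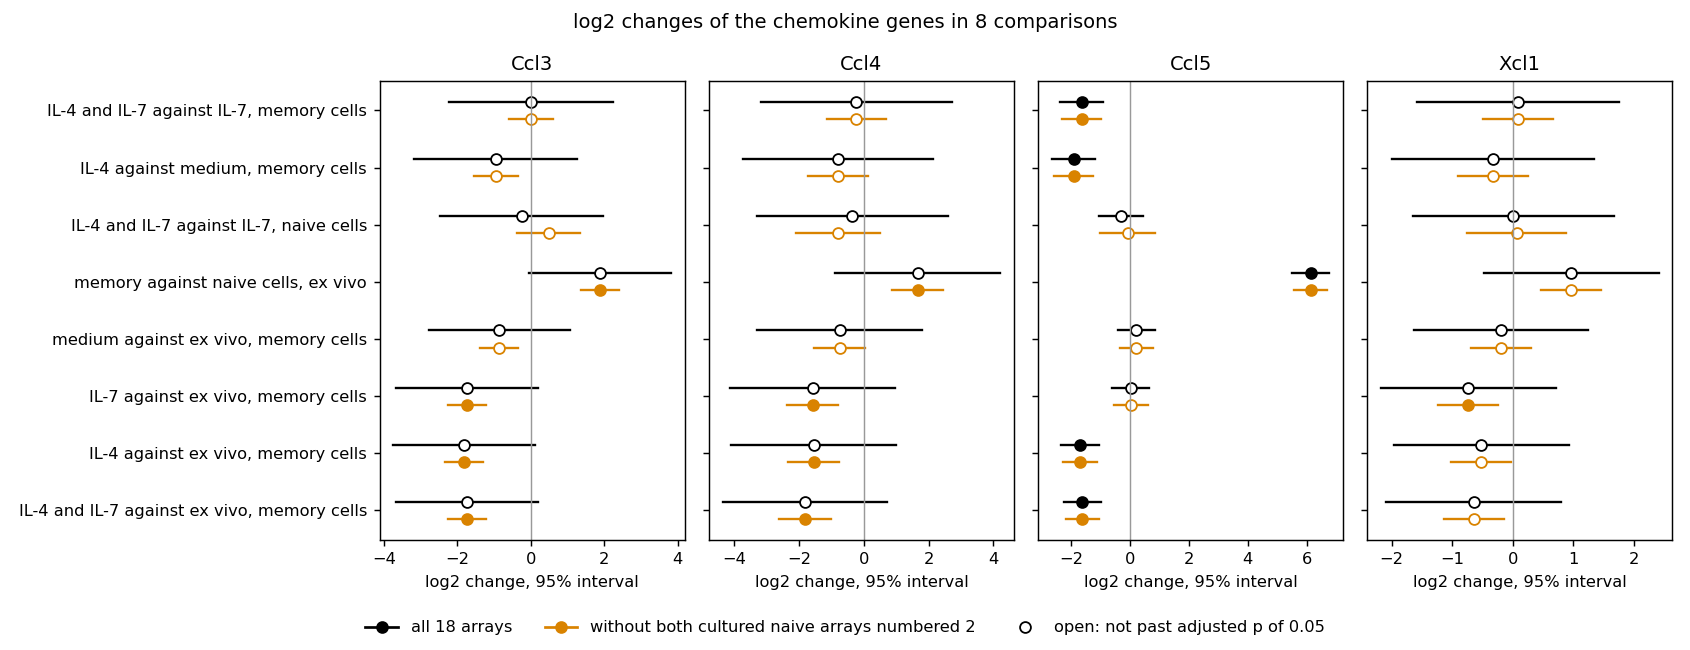
Log2 change (x axis) with its 95% interval for each chemokine gene in 8 comparisons (rows); black uses all 18 arrays, orange leaves out the second array of both cultured naive groups, and filled points passed an adjusted p of 0.05. The changes of Ccl3, Ccl4 and Xcl1 within memory cells and ex vivo are the same in both fits, while their intervals are narrower without those 2 arrays. Ccl5 changes by 6.12 between memory and naive cells ex vivo. In memory cells with IL-4 it changes by -1.61 to -1.91, against cultured or ex vivo memory cells. In naive cells with IL-4 it changes by -0.29 over all arrays.

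The chemokine levels of ex vivo memory cells stood beside higher levels of some markers of other cell types. The 5 B cell markers on the array had a mean of 5.41 to 5.97 in memory cells ex vivo, with all 5 above the filter value, against 4.95 to 4.96 in naive cells ex vivo, with 4 above it. Ms4a1, which encodes CD20, read 4.32 to 5.27 in memory cells ex vivo, against 3.10 and 3.50 in naive cells ex vivo. The 8 myeloid markers had a mean of 4.75 to 5.04 in memory cells ex vivo, with 6 or 7 above the filter value, against 4.46 on both naive arrays, with 5 or 6 above it. The 3 NK cell markers on the array, which include Eomes, had a mean of 5.21 to 6.22 in memory cells ex vivo, against 4.97 and 5.09 in naive cells ex vivo, and Ncr1 read 4.35 to 4.79 against 4.25 and 4.42. In cultured memory cells, apart from the second medium array, the B cell mean was 5.18 to 5.53 and the myeloid mean 4.43 to 4.64. The NK cell mean was 6.23 to 6.34 in memory cells with IL-4, alone or with IL-7, against 5.27 to 5.66 with IL-7. Eomes read 9.09 to 9.51 there, against 7.35 and 6.64 with IL-7. The other NK cell markers overlapped, with Ncr1 at 4.34 to 4.62 against 4.45 and 4.48. Klre1 read 5.04 to 5.31 against 5.19 and 4.69. Dendritic cell markers averaged 4.76 to 4.90 in memory cells ex vivo, against 4.54 and 4.62 in naive cells ex vivo, and platelet markers 5.10 to 5.56, against 4.94 and 4.99. The 3 CD4 T cell markers averaged 4.98 to 5.30 in memory cells ex vivo, against 4.74 and 4.84 in naive cells ex vivo. The part of these cells in the chemokine differences was not tested.

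The highest Ccl3, Ccl4 and Xcl1 values of the series were in naive cells, on the second array of each cultured group. Ccl3 read 3.39 and 6.37 with IL-4 and IL-7, 2.90 and 7.35 with IL-7, and 3.40 and 3.25 ex vivo. Ccl4 read 4.28 and 9.65 with IL-4 and IL-7, 5.09 and 9.55 with IL-7, and 4.99 and 4.77 ex vivo. Xcl1 read 3.31 and 6.03 with IL-4 and IL-7, 3.24 and 6.07 with IL-7, and 2.89 and 2.90 ex vivo. On the second arrays all 3 genes exceeded every memory array, which none did on the first.

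Between the 2 arrays of the IL-7 group the difference, second minus first, was 4.45 for Ccl3, 4.47 for Ccl4 and 2.82 for Xcl1, which ranked 7, 6 and 22 from the highest of 13769 genes. In the group with IL-4 and IL-7 it was 2.98 for Ccl3, 5.38 for Ccl4 and 2.72 for Xcl1, which ranked 27, 4 and 43. Ccl5 differed less, by 0.93 (rank 209) with IL-7 and 0.48 (rank 2447) with IL-4 and IL-7. Ccl3, Ccl4 and Xcl1 were among the 40 genes that were over 2 log2 units higher on the second array of both groups. The first 5 of the 40 by the smaller of the 2 differences, chosen after their values were seen, were Lad1, Irf4, Tnnt2, Cdkn1a and Ccl4. Means of the B cell markers differed between the 2 arrays by little, at 5.05 on the second and 5.04 on the first with IL-7, and the myeloid means were 4.40 and 4.52. The mean of the NK cell markers, Eomes among them, was 5.23 on the second and 4.56 on the first array with IL-7, and 5.78 and 5.39 with IL-4 and IL-7, while Ncr1 read 4.12 against 4.26 and 4.08 against 4.40. The part of NK cells was not tested.

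Transcription factors tied to chemokine genes moved in both directions between these arrays. Of the 11 tested, 7 were higher and 4 lower on the second array with IL-7, with a median difference of 0.07. With IL-4 and IL-7, 6 were higher and 5 lower, with a median of 0.22 and a lowest value of -1.12 for Klf13. The 3 that differed most in both groups, named after their values were seen, were Irf4, which follows T cell receptor signal strength, Tbx21, which encodes T-bet, and its relative Eomes. Irf4 was 5.73 higher on the second array with IL-7 and 5.43 higher with IL-4 and IL-7. Tbx21 was 2.48 higher with IL-7 and 2.77 higher with IL-4 and IL-7, and Eomes 2.33 and 1.71 higher in the same groups. Of the 5 activation cytokines tested, 3 were higher and 2 lower on the second array with IL-7, between -0.17 (Tnf) and 1.79 (Csf2). With IL-4 and IL-7 all 5 were higher, between 0.50 (Tnf) and 1.08 (Lta). No test between 2 single arrays was made.

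**Figure D3:**
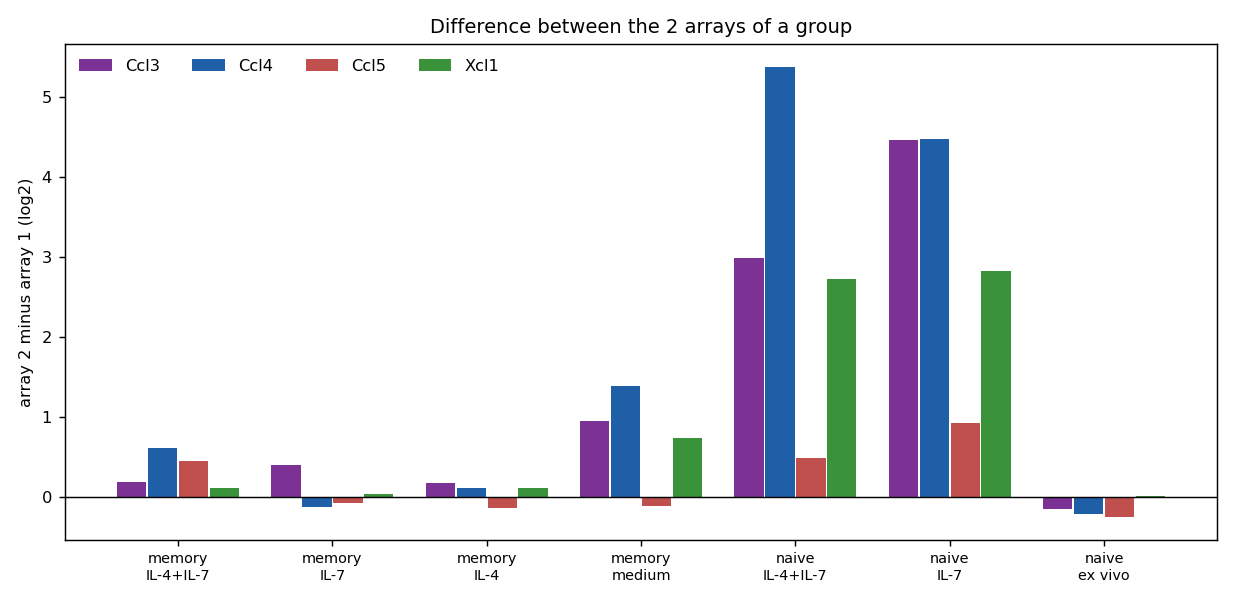
Second minus first array (y axis, log2 units) for the 4 chemokine genes in the 7 groups of 2 arrays (x axis). Ccl3, Ccl4 and Xcl1 bars reach 2.72 to 5.38 in both cultured naive groups and 0.74 to 1.39 in medium, while Ccl5 bars stay under 1.

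Group means of cultured naive cells carried a wide spread. With IL-7 the SD of the 2 arrays was 3.15 for Ccl3, 3.16 for Ccl4 and 2.00 for Xcl1, and none of these genes passed in a comparison that involved cultured naive cells. Against naive cells ex vivo the differences with IL-7 were 1.80 for Ccl3, 2.44 for Ccl4 and 1.76 for Xcl1 (limma adjusted p-values of 0.159 to 0.299), where 12.8% of all genes passed and 1 of the 4 had an unadjusted p under 0.05. With IL-4 and IL-7 they were 1.55, 2.09 and 1.77 (limma adjusted p-values of 0.151 to 0.381), where 14.8% passed and 2 of the 4 had an unadjusted p under 0.05. On the first arrays alone the differences with IL-7 were -0.43 for Ccl3, 0.20 for Ccl4 and 0.35 for Xcl1, and with IL-4 and IL-7 they were 0.06, -0.60 and 0.41, none past the test.

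Which array was kept decided the calls in these groups, and a fit that leaves out 1 naive array has a single array in that arm, assumed to vary like the other groups. Without the first IL-7 array, Ccl3 passed at 4.03 (limma adjusted p = 0.0174) and Xcl1 at 3.17 (limma adjusted p = 0.0292) against naive cells ex vivo. Without the first array with IL-4 and IL-7, Ccl4 passed at 4.77 (limma adjusted p = 0.0295) and Xcl1 at 3.13 (limma adjusted p = 0.0253). Memory minus naive cells with IL-7, the Ccl3 difference was -1.65 over all arrays, -3.87 without the first naive array (limma adjusted p = 0.0298) and 0.58 without the second array of both cultured naive groups (limma adjusted p = 0.765).

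Ordered by group mean, Ccl5 ran from medium (12.19) through IL-7 (11.99), ex vivo (11.96), IL-4 with IL-7 (10.36) and IL-4 (10.28) in memory cells to ex vivo (5.84), IL-7 (5.36) and IL-4 with IL-7 (5.06) in naive cells. Neighbours in this order overlapped except medium and IL-7, ex vivo memory cells and memory cells with both cytokines, and memory cells with IL-4 and naive cells ex vivo. Ccl3 was highest in ex vivo memory cells (5.22 ± 0.24, SD, n = 4) and lowest in ex vivo naive cells (3.33 ± 0.11, SD, n = 2). Ccl4 and Xcl1 had their highest means in cultured naive cells, 7.32 ± 3.16 with IL-7 for Ccl4 and 4.67 ± 1.92 with IL-4 and IL-7 for Xcl1 (SD, n = 2 each), where the 2 arrays of a group lay far apart.

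IL-4 gave no difference past the test in Ccl3, Ccl4 or Xcl1. In memory cells, IL-4 with IL-7 against IL-7 gave a difference of 0.01 for Ccl3 (95% interval -2.22 to 2.23), -0.23 for Ccl4 (-3.17 to 2.71) and 0.09 for Xcl1 (-1.58 to 1.76). The intervals without the second array of both cultured naive groups were -0.60 to 0.61, -1.15 to 0.68 and -0.49 to 0.67. IL-4 against medium gave -0.96, -0.80 and -0.33 over all arrays, and -0.48, -0.11 and 0.04 without the second medium array, none past the test. In naive cells the differences with IL-4 were -0.25 for Ccl3, -0.35 for Ccl4 and 0.01 for Xcl1 over all arrays. Without the second array of both groups they were 0.49, -0.81 and 0.06, so that for Ccl3 turned its sign. None passed in either fit (limma adjusted p-values of 0.654 to 0.998).

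Adding IL-7 to cultured memory cells, with or without IL-4, gave no difference past the test for any of the 4 genes. In memory cells without IL-4, IL-7 minus medium gave -0.89 for Ccl3, -0.83 for Ccl4, -0.20 for Ccl5 and -0.54 for Xcl1. Without the second medium array these were -0.42, -0.14, -0.26 and -0.17, none past the test. In memory cells with IL-4 it gave 0.07, -0.27, 0.08 and -0.12. In limma 0% of all genes passed either comparison, with 804 and 286 genes at an unadjusted p under 0.05. The response to culture with IL-7 in memory minus that in naive cells was -3.54 for Ccl3, -4.03 for Ccl4, -2.49 for Xcl1 and 0.51 for Ccl5. Of these, 3 of 4 had an unadjusted p under 0.05 and none passed (limma adjusted p-values of 0.395 to 0.711), where 0.0508% of all genes did. Without the second array of both cultured naive groups these values were -1.31, -1.79, -1.08 and 0.97 (limma adjusted p-values of 0.463 to 0.662). Without the first naive IL-7 array, which leaves the second alone in its arm, Ccl3 passed at -5.77 (limma adjusted p = 0.0434). Across the 17 comparisons, 7 had a chemokine gene past the test, in each case Ccl5, and 10 had none.

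Other chemokines on the array were called rarely. Of 31 listed, 30 were on the array and 17 were tested, and only Cxcl10, an interferon-induced ligand of Cxcr3, passed in any comparison. In memory cells Cxcl10 read 5.55 and 5.70 with IL-7, against 9.32, 7.89, 8.30 and 8.45 ex vivo. It fell by 2.86 (SE 0.61, limma adjusted p = 0.00830), where 19.9% of all genes passed. With IL-4 it fell by 1.91 (SE 0.61, limma adjusted p = 0.0387), where 20.7% of all genes passed. Both calls ended when either cultured array was left out (limma adjusted p-values of 0.0773 to 0.266), and that with IL-4 also without ex vivo array 1, 3 or 4. The list's median change was -0.19 with IL-7 and -0.03 with IL-4, against -0.05 and 0.02 for all genes.

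Receptors for these chemokines that were tested gave no call. Ccr1 and Ccr3 did not pass the filter on low values, and neither Xcr1 nor Ackr2, a scavenger receptor of CC chemokines, passed in any comparison. Xcr1 ranged from 3.58 to 4.20 over the arrays and Ackr2 from 4.61 to 5.40. The smallest limma adjusted p-value ex vivo was that of Xcr1 (memory minus naive cells 0.39, limma adjusted p = 0.148).

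Of 6 cytokines often made with these chemokines 5 were tested, and 2 were higher in memory than in naive cells ex vivo, in a comparison where 1.93% of all genes passed. Ifng, the main macrophage-activating cytokine of CD8 T cells, read 12.55, 11.92, 11.38 and 12.26 in memory cells ex vivo, against 4.28 and 3.81 in naive cells ex vivo. It was 7.98 higher (SE 0.51, limma adjusted p = 8.86e-07). Fasl, a death ligand, was 4.74 higher (SE 0.49, limma adjusted p = 7.58e-05). The median over the 5 was 0.58, against 0.03 for all genes. Of 11 transcription factors tested, 1 was higher, Tbx21, by 4.83 (SE 0.67, limma adjusted p = 0.000879). Of 9 granule and secretion genes and 3 mRNA decay factors none passed.

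After culture with IL-4 and IL-7, against ex vivo memory cells, where 22.8% of all genes passed, 3 of the 5 cytokines fell, with Fasl 3.30 lower (SE 0.49, limma adjusted p = 0.000655). In contrast, Lta, which encodes lymphotoxin alpha, was 2.01 higher (SE 0.32, limma adjusted p = 0.000882). All 3 mRNA decay factors, which bind AU-rich elements of cytokine transcripts, fell, with Zfp36l2 2.55 lower (SE 0.28, limma adjusted p = 7.28e-05) and Zfp36l1 1.38 lower (SE 0.24, limma adjusted p = 0.00158). Of the 11 transcription factors 1 rose and 1 fell, and the one that fell was Rel, the NF-kB subunit c-Rel, at 3.40 lower (SE 0.62, limma adjusted p = 0.00215). The calls for Fasl, Lta, Zfp36l2, Zfp36l1 and Rel held when any single array of the comparison was left out. Other calls in these counts ended in some of 7 fits, 1 without each array of the comparison in turn and 1 without the second medium array. The Tnf call ended in 5, that for Ifng in 2, for Zfp36 in 1 and for Eomes, the factor that rose, in 2. With IL-7 against ex vivo, where 19.9% of all genes passed, 3 cytokines, 3 decay factors and 3 transcription factors were lower and 1 transcription factor higher. Each of those 10 calls ended in 1 to 6 of the 7 fits. Of the granule and secretion genes, 3 of 9 were also lower with IL-7, namely Gzma, Gzmb and Srgn. Only Vamp8 of the 9 was called with IL-4 and IL-7, where it was higher, and 0 were called with IL-4. None of these granule gene calls held in each of the 7 fits. With IL-4, where 20.7% passed, 2 cytokines, 3 decay factors and 1 transcription factor were lower and 1 cytokine and 1 transcription factor higher, and the calls for Fasl, Zfp36l1 and Zfp36l2 held in each of the 7 fits while the other 5 did not.

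In memory cells, IL-4 with IL-7 against IL-7, where 1.81% of all genes passed, gave 1 of 9 granule genes higher, Gzma, which encodes granzyme A, by 4.09 (SE 0.64, limma adjusted p = 0.00359). It also gave 1 of 5 cytokines higher, Lta, by 1.97 (SE 0.37, limma adjusted p = 0.0119). The Gzma call ended without the second array with both cytokines or the first IL-7 array (limma adjusted p-values of 0.0565 and 0.0588). That for Lta ended without the first array with both cytokines or the second IL-7 array (0.111 and 0.166). Against medium, where 1.94% of all genes passed, IL-4 gave Lta 1.98 higher (limma adjusted p = 0.0110) and a Zfp36l2 difference of -1.58 (limma adjusted p = 0.0211), and both calls ended without the first IL-4 array or the second medium array (limma adjusted p-values of 0.0698 to 0.166). The Zfp36l2 call also ended without the second IL-4 array. In naive cells, IL-4 with IL-7 against IL-7 gave an Lta difference of -1.11, which did not pass (limma adjusted p = 0.260). The Lta response to IL-4 in memory minus that in naive cells passed (limma adjusted p = 0.0461), where 0.0726% of all genes did. This call ended in 6 of 9 fits that each left out a single array.

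Across the 18 arrays Ccl3, Ccl4 and Xcl1 ran close to each other and Ccl5 did not. Pearson's r was 0.94 for Ccl3 with Ccl4, 0.91 for Ccl3 with Xcl1 and 0.97 for Ccl4 with Xcl1, and 0.88, 0.83 and 0.88 on the 16 arrays without the second array of both cultured naive groups. Ccl5 had r of 0.01 with Ccl3, -0.15 with Ccl4 and -0.23 with Xcl1 over 18 arrays, and 0.62, 0.57 and 0.56 over 16. These values describe the arrays, which fall into 8 groups, and were not tested.

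The 3 tested genes with the highest r to each chemokine gene over 18 arrays were counted as most like it. For Ccl3 they were Ccl4, Tnfrsf9 (r = 0.91) and Xcl1, and for Ccl4 they were Xcl1, Tnfrsf9 (r = 0.96) and Cth (r = 0.95). For Xcl1 they were Ccl4, Cth (r = 0.96) and Tnfrsf9 (r = 0.95). Tnfrsf9 encodes the costimulatory receptor 4-1BB and Cth an enzyme of cysteine synthesis. Tnfrsf9 read 9.37 and 9.25 on the second arrays of both cultured naive groups, against 5.55 and 6.08 on the first, and 6.56 to 7.04 in memory cells ex vivo. Without the 2 second arrays its r was 0.83 with Ccl3, 0.85 with Ccl4 and 0.74 with Xcl1.

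For Ccl5 the most similar genes were Inppl1 (r = 0.98), which encodes an inositol phosphatase, Cxcr5 (r = 0.98), the receptor of Cxcl13, and Sdcbp2 (r = 0.97). These changed little without the 2 arrays (0.98, 0.97 and 0.96 over 16). In memory cells Inppl1 read 7.65 and 7.90 with both cytokines, against 8.19 and 8.33 with IL-7, and 8.14 to 8.18 ex vivo. With IL-4 it read 7.86 and 7.98, which overlapped the 7.95 and 8.12 in medium. Its naive arrays ran from 6.04 to 6.85. In memory cells Cxcr5 read 6.61 and 7.16 with both cytokines, against 7.40 and 8.07 with IL-7. With IL-4 it read 6.18 and 6.80, against 7.93 and 8.17 in medium.

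**Figure D4:**
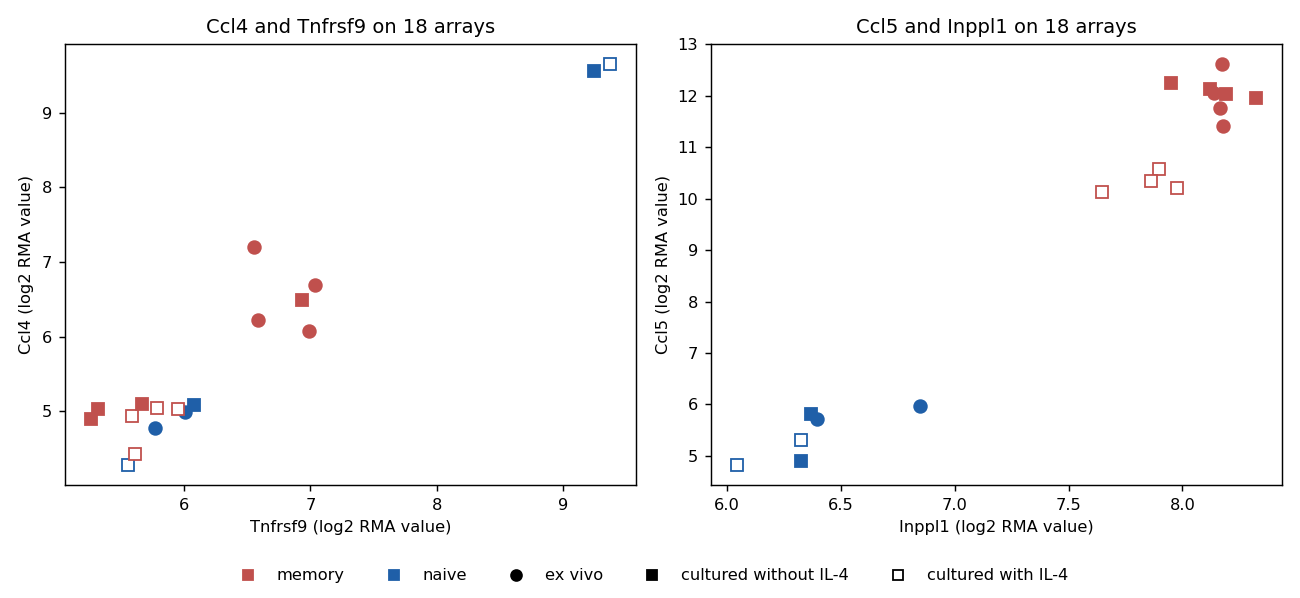
Log2 RMA values on 18 arrays of Ccl4 (y axis) against Tnfrsf9 (x axis), left, and of Ccl5 (y axis) against Inppl1 (x axis), right; red is memory, blue is naive, circles are ex vivo, filled squares are cultured without IL-4 and open squares with IL-4. In the left panel the second arrays of both cultured naive groups lie alone above 9 on both axes, and in the right panel the memory arrays with IL-4 lie below the other memory arrays in Ccl5.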

How the data were processed

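Total RNA of sorted F5 CD8 T cells was measured on 18 arrays. Per the labels' protocols, amplified RNA carried a biotin label added during transcription. The deposited values are log2 units for each probe set, and the submitters' processing notes name RMA and limma, with versions not given in the sources used here. Medians of the arrays lay between 4.62 and 4.76. Of 45101 probe sets, 64 were controls, 34945 had 1 gene symbol in the annotation table used, 932 had several and 9160 had none; those with several or none were not tested. Entrez IDs of 34741 matched the RefSeq table of GRCm38.p6, which changed 0 symbols. The probe set with the highest mean stood for each of 18193 genes, and 4424 were left out by the filter, a value above the 40th percentile on at least 2 arrays.

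Groups came from the labels. With limma 3.58.1 in R 4.3.3, 1 model of 8 group means over all arrays (10 residual and 4.13 prior degrees of freedom) gave 17 contrasts, two-sided, with Benjamini-Hochberg adjustment over 13769 genes and a threshold of 0.05. The fit was tested on simulated data. Intervals are 95%. The number of arrays limits the precision. Alternatives changed the filter, the probe sets, the scaling, the variance model, the arrays in the fit and the replicate block. The chemokine genes and the gene lists were chosen with earlier results of these data known. Other genes are named only by list, with values for the 2 to 4 with the smallest p-values past the test (1 or 2 where none passed), or by likeness, unless said otherwise. Eomes, Pf4 and Xcr1 each stand in 2 lists. A listed gene is not reported here. Promoters of 2 of the 4 genes were matched by symbol in the RefSeq sequence table.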

Additional observations from a re-analysis of the deposited data

How the results depend on the processing

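The Ccl5 differences between memory and naive cells kept their direction and stayed past the test under every alternative run. No other filter, probe set rule, scaling or variance model moved a count of chemokine genes past the test, and no called change turned its sign. With only the arrays compared, 3 of the 4 genes passed in memory against naive cells ex vivo, where 2.8% of all genes passed. As many passed in IL-7, IL-4 and both cytokines against ex vivo memory cells, where 29.4%, 28% and 28.5% of all genes passed. With IL-7 they include Xcl1, which lay above the filter value on only 1 array outside the cultured naive groups. In IL-4 against medium 0 of the 4 passed. The counts in the first 4 were also 3 without the second array of both cultured naive groups. Without these and the second medium array they were 4, 3, 3 and 4, with 5.55%, 29.9%, 29.8% and 31.3% of all genes past the test, and 2 in medium against ex vivo; the cause was not tested, though in these fits the standard errors were smaller. Leaving out single arrays gave 0 to 1 genes for IL-4 with and without IL-7 in memory cells, 0 to 2 for cultured naive cells against ex vivo with IL-7 or both cytokines, 1 to 2 for memory against naive cells with IL-7 and 0 to 1 for the difference in the response to culture. Over all settings Ccl5 lost a call 7 times, and a call was gained 16 times by Ccl3, 14 by Ccl4 and 7 by Xcl1. Same-numbered samples deviated from their group means with correlations of -0.13 to 0.51 in 6 naive pairs (4 over 0.1). In 20 memory pairs they were -0.03 to 0.45 (11 over 0.1). Between groups of 2 arrays both numbers give the same correlation, so these pairs are not independent. The main fit held no pairs because no label gives them, and whether the numbers mark pairs was left unsettled. With the replicate block Ccl5 alone of the 4 genes passed, in the same 7 comparisons, and 0 genes in the others. Counts of all genes moved further: medium against ex vivo had 0 over all arrays and 2256 without the second medium array, and naive cells with IL-7 against ex vivo had 1763 over all arrays and 369 without the second array of both cultured naive groups, where memory against naive cells had 174 against 372 with IL-7 and 896 against 525 with both cytokines.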
